A study of Homo sapiens with 8 samples.

Results

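The genes described here encode 8 RNA-binding proteins that control alternative splicing in epithelial or mesenchymal cells. They are the epithelial regulators ESRP1, ESRP2 and RBM47, and the regulators RBFOX2, QKI, MBNL1, MBNL2 and PTBP1, which act in mesenchymal cells or in many cell types. They were selected by gene symbol, and all 8 were found among the 17561 genes of the expression table. The list was drawn up when the differences between the plasmids were already known, so that these differences are given as a description with no p-value.

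The cells were HepG2, a human hepatocarcinoma line, harvested 48 h after transfection with pGRHL2, a plasmid encoding flag-tagged GRHL2, or with the control vector pcDNA3. Each plasmid had 4 libraries, numbered 1 to 4. The study's methods describe a GRHL2 construct with an EEF1A1 promoter that also encoded a green fluorescent protein, which pcDNA3 does not, and the insert was therefore not the sole difference between the plasmids. Both groups were bulk cultures, in which fewer expressing cells and less RNA per cell cannot be told apart, and in which transfected and untransfected cells were measured together.

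GRHL2 is a transcription factor of the Grainyhead family that maintains epithelial identity. Epithelial and mesenchymal cells use different exons of many shared genes. ESRP1 and ESRP2 are paralogs that promote epithelial exons, such as the IIIb exon of the receptor gene FGFR2, whereas RBFOX2 and QKI promote many of the exons used by mesenchymal cells. ESRP1 is known to be repressed by the transcription factor ZEB1 during epithelial-mesenchymal transition (EMT). The values analysed here are per gene and hold no information on exon use.

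Expression values are on a log2 scale as deposited. The study's methods state a division by transcript length, and how this was applied to the log values was not tested here. The library medians lay between 6.71 and 6.73, and the depth behind each value is unknown because counts are not part of the table. For every gene, the 2 values of a pair (libraries with the same number) averaged to an identical level in all 4 pairs, so that a high pGRHL2 value always faces a low pcDNA3 value of the same number. Variation between replicates that both plasmids shared is therefore absent from the values, and groups that do not overlap are the same observation as 4 pair differences of 1 sign. Differences are given as the log2 fold change (log2 FC, pGRHL2/pcDNA3) ± SD of the 4 pair differences. GRHL2 itself lay between 16.22 and 16.87 in pGRHL2 and between 6.61 and 7.25 in pcDNA3. The hepatocyte markers were abundant in these cells, with mean values of 16.88 for ALB and 17.11 for AFP. Of the 9 hepatocyte markers and the 4 cholangiocyte markers, 0 were called by limma at an adjusted p under 0.05, with 1 gene of each list at an unadjusted p under 0.05. These were FGB, with a log2 FC of 0.28 ± 0.33, and KRT7, with 0.19 ± 0.12 (limma, adjusted p = 0.249 and 0.097). Both were higher in all 4 pairs. The summed hepatocyte markers lay between 18.15 and 18.36 in pGRHL2 and between 18.06 and 18.27 in pcDNA3. The summed cholangiocyte markers lay between 14.11 and 14.45 in pGRHL2 and between 14.02 and 14.36 in pcDNA3. The largest part of this sum was KRT19, with a mean value of 13.90, compared with 5.35 for KRT7. Of the fibroblast and leukocyte markers, only COL1A1, PDGFRB, CD14 and LYZ were in the table, of which limma called 0. COL1A1, the 1 of these with an unadjusted p under 0.05, was higher in all 4 pGRHL2 libraries, and its part in the values below was not tested.

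Promoter sequence was searched for 4 of the 8 regulators, in RefSeq promoter windows (GRCh38.p14, from 250 bases before to 50 bases after each start). These were RBM47, MBNL1, MBNL2 and PTBP1, with 11 windows in all. The promoters of ESRP1, ESRP2, RBFOX2 and QKI were not searched, and the counts below do not cover them. From ChIP-seq in HepG2 cells, the study proposes ESRP1 as a direct target of GRHL2. The motif AACCNGTT, searched on both strands and typical of Grainyhead factors, was present in 0 of these 11 windows and in 1.73% of all 35116 windows. The E-box CACCTG, also searched on both strands and of the type bound by SNAI1 and ZEB1, was present in 1 of the 11 windows and in 20.6% of all windows. The motifs cannot overlap here, since AACCNGTT had no match. The match lay in 1 of the 4 windows of RBM47, at a start inside the body of the gene. As the only one with a match, the 250 bases before this start are printed with the E-box in capitals (chr4:40514582-40514831, minus strand, 5′ to 3′).
RBM47: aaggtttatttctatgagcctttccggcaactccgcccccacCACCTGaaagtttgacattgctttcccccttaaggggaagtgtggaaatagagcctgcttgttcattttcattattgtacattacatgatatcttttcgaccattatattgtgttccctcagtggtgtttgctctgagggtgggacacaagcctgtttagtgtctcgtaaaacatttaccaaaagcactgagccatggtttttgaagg
A match of letters describes the window and is not a binding site.

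The levels of the 8 regulators in HepG2 cells spanned a wide range. PTBP1, a repressor of exon inclusion present in most dividing cells, was the most abundant, with a mean value of 12.08 over the 8 libraries, at percentile 98.2 of all genes. QKI, a STAR-family RNA-binding protein, followed with 10.41. ESRP2 was the most abundant of the 3 epithelial regulators, with 9.67 and a percentile of 84.5. MBNL2 and MBNL1, muscleblind proteins that favor splicing patterns of differentiated cells, had means of 9.49 and 9.38. RBM47, an epithelial RNA-binding protein, and RBFOX2 had means of 7.74 and 6.35. ESRP1 was by far the least abundant, with 2.85 and a percentile of 24.

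This order was the same in every library, since each gene exceeded the next in 8 of 8 libraries. The closest neighbors were ESRP2 and MBNL2, which were separated by 0.18 ± 0.12 on the log2 scale (SD over 8 libraries) and by as little as 0.02 in one of them. MBNL2 and MBNL1 were separated by 0.11 ± 0.05. Both distances are small beside the others, which ranged from 0.74 ± 0.16 between QKI and ESRP2 to 3.51 ± 0.13 between RBFOX2 and ESRP1. The order between genes rests on the untested scaling for transcript length. Differences of 1 gene between libraries are free of it only if the scaling was a subtraction on the log scale, which was not tested.

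**Figure D1:**
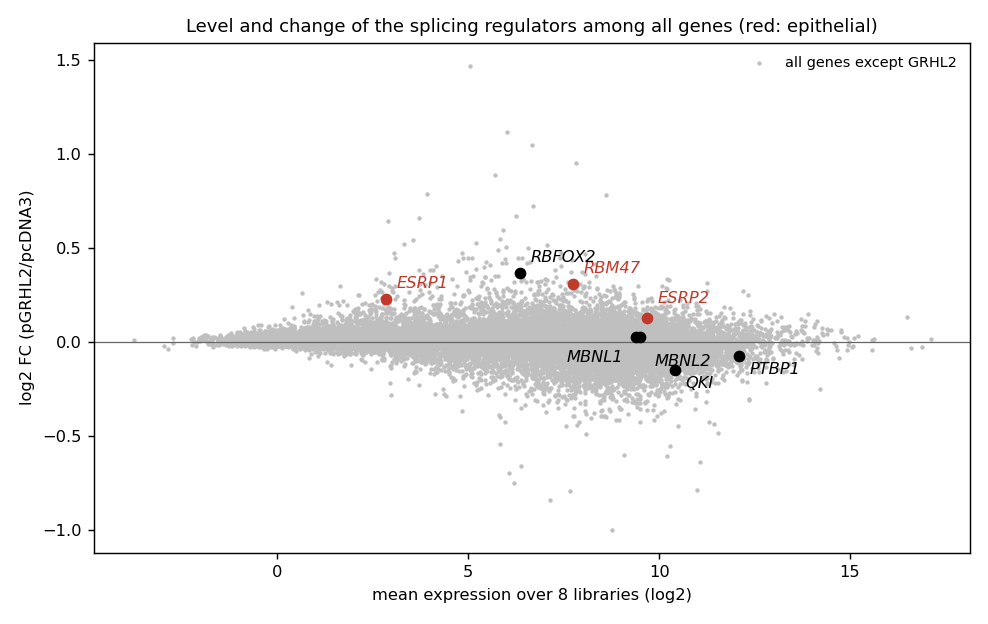
Mean expression over the 8 libraries (x axis, log2) and log2 FC of pGRHL2 against pcDNA3 (y axis) for all genes except GRHL2 (grey points), with the epithelial regulators in red and the other regulators in black. ESRP1 lies far to the left of the other 7 regulators, at 2.85, and RBFOX2 has the highest log2 FC of the 8, at 0.37.

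Among the epithelial regulators, all 3 had higher values in each pGRHL2 library than in any pcDNA3 library. The same held for 13.4% of all genes, and the regulators were chosen with this comparison known. ESRP1 (hg38, chr8:94641074-94707466, plus strand) had values of 2.96, 2.97, 2.97 and 2.95 in pGRHL2 libraries 1 to 4. Its values in pcDNA3 libraries 1 to 4 were 2.73, 2.73, 2.73 and 2.75. All 4 pair differences of ESRP1 lay between 0.20 and 0.25. The log2 FC of ESRP1 was 0.23 ± 0.02 (SD, n = 4 pairs), which corresponds to a 1.17-fold difference. Genes with so low a level differed little in this table, as the 1266 genes within 0.5 of the level of ESRP1 had a median absolute log2 FC of 0.02 and a median SD of 0.05. Rlog values are shrunk toward the gene's mean where reads are few, which lowers the fold of a gene such as ESRP1 by an unknown amount.

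RBM47 (hg38, chr4:40423267-40630875, minus strand) had values of 7.92, 7.84, 7.91 and 7.93 in pGRHL2 libraries 1 to 4. In pcDNA3 libraries 1 to 4 they were 7.57, 7.65, 7.58 and 7.55. Pair 2 showed the smallest difference, 0.18, and pair 4 the largest, 0.38, without overlap of the groups. The log2 FC of RBM47 was 0.31 ± 0.09 (SD, n = 4 pairs), a 1.24-fold difference.

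ESRP2 (hg38, chr16:68229033-68238102, minus strand) had values of 9.73, 9.80, 9.75 and 9.67 in pGRHL2 libraries 1 to 4. In pcDNA3 libraries 1 to 4 the values were 9.61, 9.55, 9.60 and 9.67. The groups met at pair 4, where the pGRHL2 library exceeded the highest pcDNA3 library by only 0.0033. The log2 FC of ESRP2 was 0.13 ± 0.10 (SD, n = 4 pairs), close to the spread between pairs. Of its exon bases, 5.80% are shared with other genes, mostly NFATC3 on the opposite strand, and counting did not use strand. NFATC3 had a log2 FC of -0.13 ± 0.19, and its part in the value of ESRP2 was not tested.

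**Figure D2:**
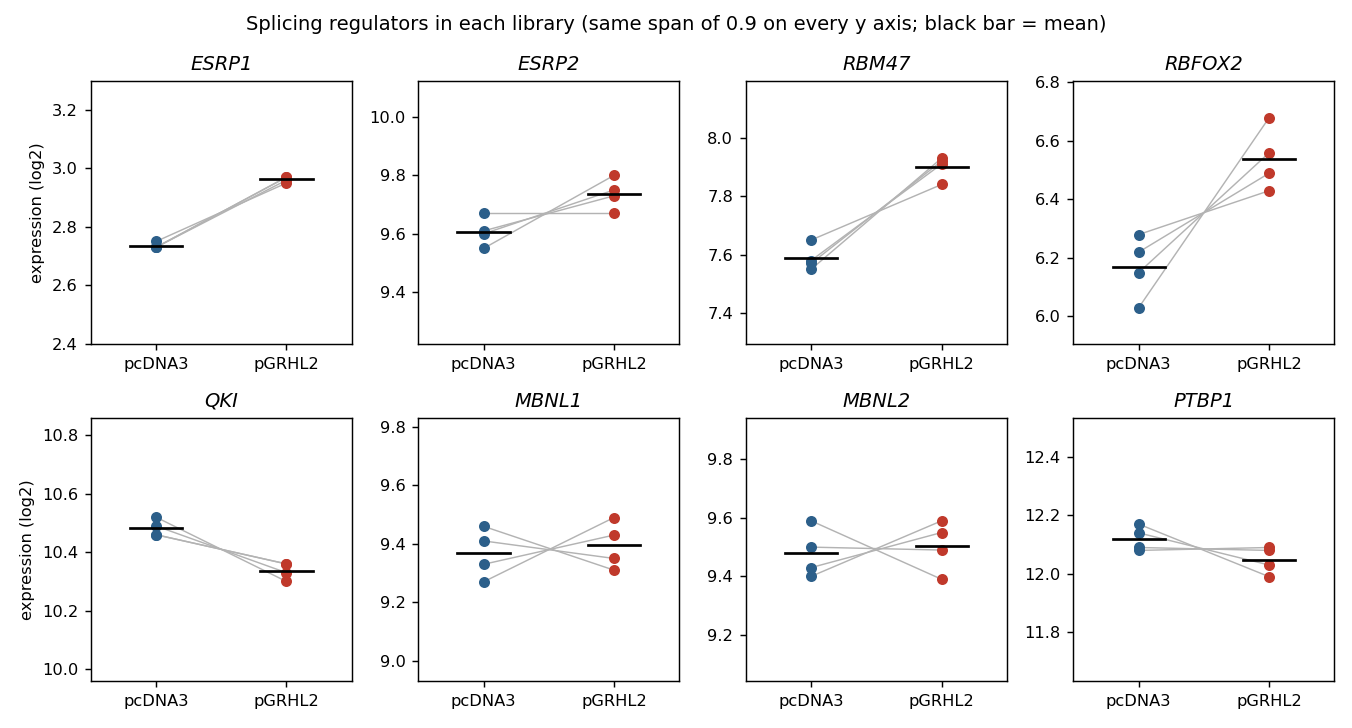
Log2 expression of the 8 splicing regulators in the 4 pcDNA3 libraries (blue) and the 4 pGRHL2 libraries (red), with grey lines joining the libraries of the same number, black bars at the group means and y axes of equal span. ESRP1, ESRP2, RBM47 and RBFOX2 are higher and QKI is lower in all 4 pGRHL2 libraries, whereas the groups of MBNL1, MBNL2 and PTBP1 overlap.

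Since both ESRPs act on largely the same exons, their levels were also considered together. ESRP2 exceeded ESRP1 by 6.72 to 6.83 on the log2 scale in the pGRHL2 libraries and by 6.81 to 6.92 in the pcDNA3 libraries. On the linear scale, ESRP1 contributed from 0.873% to 0.938% of the summed ESRP level in pGRHL2 and from 0.820% to 0.881% in pcDNA3. The log2 of the sum lay between 9.69 and 9.81 in pGRHL2 and between 9.56 and 9.68 in pcDNA3, which is nearly the level of ESRP2 alone. These shares compare the values as deposited. They rest on the untested scaling for transcript length and on the shrinkage of the weakly expressed ESRP1.

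The regulators associated with mesenchymal or broad expression did not share a direction. RBFOX2 (hg38, chr22:35738736-36028824, minus strand) binds GCATG elements near exons. Its values were 6.49, 6.68, 6.43 and 6.56 in pGRHL2 libraries 1 to 4, and 6.22, 6.03, 6.28 and 6.15 in pcDNA3 libraries 1 to 4. All pGRHL2 libraries were higher, and pair 2 stood out with a difference of 0.65, compared with 0.15 to 0.40 in the other pairs. The log2 FC of RBFOX2 was 0.37 ± 0.22 (SD, n = 4 pairs), a 1.29-fold difference and the highest of the 8 regulators, and it was 0.27 without replicate 2.

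QKI (hg38, chr6:163414000-163578592, plus strand) had values of 10.36, 10.33, 10.30 and 10.36 in pGRHL2 libraries 1 to 4. In pcDNA3 libraries 1 to 4 they were 10.46, 10.49, 10.52 and 10.46, so that all pGRHL2 libraries were lower. The log2 FC of QKI was -0.15 ± 0.06 (SD, n = 4 pairs), which is 9.8% lower on the linear scale. Among the 8 regulators, QKI was the only one with lower values in 4 of 4 pairs.

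MBNL1, on chromosome 3, ranged from 9.31 to 9.49 in pGRHL2 and from 9.27 to 9.46 in pcDNA3. MBNL2, on chromosome 13, ranged from 9.39 to 9.59 in pGRHL2 and from 9.40 to 9.59 in pcDNA3. Both had a log2 FC of 0.03, with SDs of 0.16 and 0.17, and were higher in 2 of 4 pairs. Their sign was negative with library weights (-0.01 for MBNL1 and -0.03 for MBNL2) and without replicate 4 (-0.04 and -0.03), so that no direction can be given. Of the exon bases of MBNL1, 15.92% are shared with genes on the opposite strand, mainly MBNL1-AS1, which had a value between 1.30 and 1.35 in every library. PTBP1, on chromosome 19, ranged from 11.99 to 12.09 in pGRHL2 and from 12.08 to 12.17 in pcDNA3, with a log2 FC of -0.07 ± 0.09 (SD, n = 4 pairs) and lower values in 3 of 4 pairs.

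**Figure D3:**
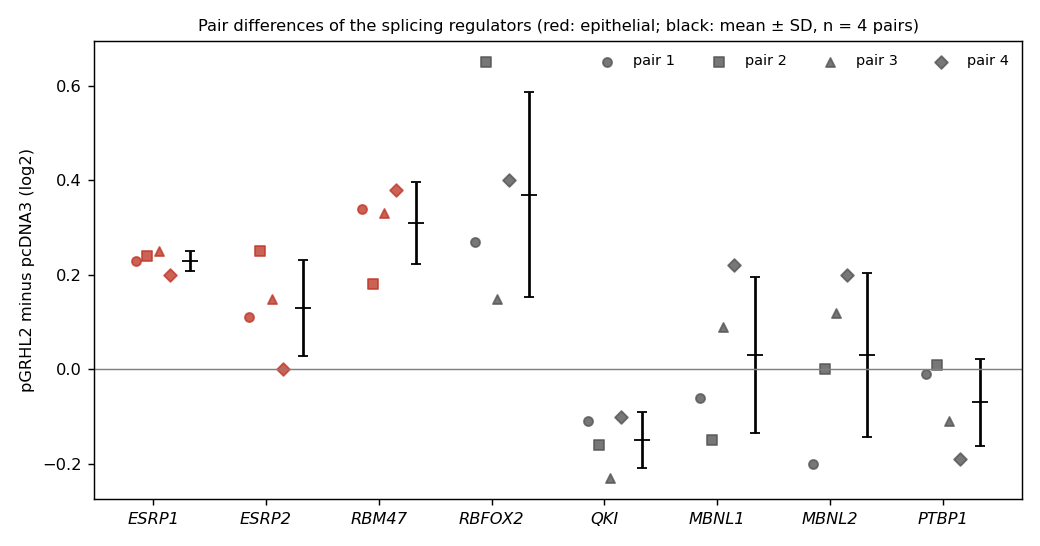
Differences between the pGRHL2 and pcDNA3 libraries of each pair (y axis, log2) for the 8 splicing regulators, with symbols for the pairs, red for the epithelial regulators and black bars for the mean ± SD of the 4 pairs. The pairs of ESRP1 lie within 0.20 to 0.25, whereas those of RBFOX2 spread from 0.15 to 0.65 and those of MBNL1 and MBNL2 fall on both sides of 0.

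Across the list, the groups did not overlap for 5 of the 8 regulators, 4 of them higher and 1 lower in pGRHL2, where 24% of all genes had groups that did not overlap, 13.4% higher and 10.5% lower. In the limma fit across all genes, ESRP1 and RBM47 were called higher and 0 regulators were called lower at an adjusted p under 0.05, where 1.69% of all genes were called higher and 0.501% lower, or 2.19% in either direction. At an unadjusted p under 0.05, 16% of all genes passed. Because the regulators were chosen with this comparison known, nothing is read from these counts. The calls also depended on the fit, which is given as a description and is no support for any regulator. RBM47 was not called when any of the 4 replicates was left out, while ESRP1 was called in all 4 of these fits. RBFOX2 was called with robust moderation, with library weights, and after all libraries were scaled to an equal sum leaving out GRHL2, and also among genes with a mean of at least 5. Calls of higher genes were more common at low levels, with 3.34% of the genes with a mean below 5, such as ESRP1, compared with 0.672% of those at or above 5. Calls of lower genes made up 0.104% and 0.746% of these classes.

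Median log2 FC was 0.23 for the 3 epithelial regulators and 0.03 for the other 5, compared with 0.00 for all genes. As RBM47 and RBFOX2 were both higher, their difference within a library changed little, from 1.30 to 1.62 in pcDNA3 and from 1.15 to 1.48 in pGRHL2. ESRP2 lay below QKI by 0.79 to 0.94 in pcDNA3 and by 0.54 to 0.69 in pGRHL2, so that the distance between them was smaller in each pGRHL2 library than in any pcDNA3 library. With equal pair means, this follows from the directions of ESRP2 and QKI given above and is no further observation.

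Paralogs of the regulators were examined next. None of MBNL3, PTBP2, PTBP3, RBFOX3 and A1CF was called by limma, and none had an unadjusted p under 0.05. MBNL3 was the most abundant muscleblind gene, with values from 11.54 to 11.92 in pGRHL2 and from 11.39 to 11.76 in pcDNA3, with a log2 FC of 0.12 ± 0.31. A1CF, a relative of RBM47 that acts with APOBEC1 in RNA editing in the liver, had a mean value of 9.06, above the 7.74 of RBM47, and a log2 FC of -0.09 ± 0.17. PTBP2, the neuronal paralog of PTBP1, and PTBP3 had log2 FC of -0.03 ± 0.17 and 0.03 ± 0.06. RBFOX3, a neuronal paralog of RBFOX2, was near the bottom of the table with a mean value of 0.85, and RBFOX1 was not analysed here.

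Other splicing genes were then considered in 5 lists covering families related to the regulators, hnRNP proteins, SR proteins with their kinases, other alternative splicing regulators and core spliceosome components. Of the 100 listed genes in the table, limma called 1 higher and 0 lower, where 1.69% of all genes were called higher and 0.501% lower. At an unadjusted p under 0.05, 2 were higher and 18 lower, where 16% of all genes passed in either direction. The only called gene was RBM20, a regulator of titin splicing in heart muscle, with values of 3.16, 3.19, 3.08 and 3.13 in pGRHL2 libraries 1 to 4 and of 2.85, 2.82, 2.93 and 2.88 in pcDNA3 libraries 1 to 4. RBM20 rose by 0.27 ± 0.09 on the log2 scale (limma, adjusted p = 0.0086), and its adjusted p was 0.057 without replicate 1. Like ESRP1, it is a weakly expressed gene.

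Although 0 of the 100 genes were called lower, 73 of them had a negative log2 FC, where 9042 of all 17561 genes had a log2 FC above 0. The median of the 100 genes was -0.043, compared with 0.002 for all genes and -0.018 for the 2173 genes with a mean of at least 10. That level is nearer to the median level of these lists (10.46). After trends on level, length and GC content were removed, the median of the 100 genes was -0.019, with 67 of them negative. The median of all genes in that fit was -0.0044. The lowest median of the 5 lists was that of the SR proteins, which bind exonic enhancers, and the CLK and SRPK kinases that phosphorylate them. The groups of 7 of the 19 genes in this list did not overlap and were lower in pGRHL2 (36.8%), compared with 10.5% of all genes and 14.9% of the 2173 genes with a mean of at least 10. A raised share was not particular to this list, with 27.8% of the hnRNP proteins and 26.7% of the related families. It was 15.8% of the other alternative splicing regulators and 10.3% of the core spliceosome. The lists are small and were chosen with earlier results of these data known. Their shares were not recomputed after the removal of trends. The median log2 FC of the SR proteins and their kinases was -0.108, and it was -0.061 after the same removal of trends. CLK1, a kinase of SR proteins, had values of 10.67, 10.65, 10.90 and 10.85 in pGRHL2 libraries 1 to 4 and of 11.23, 11.24, 10.99 and 11.04 in pcDNA3 libraries 1 to 4. Its log2 FC was -0.36 ± 0.25 (limma, adjusted p = 0.083), with larger differences in pairs 1 and 2 than in pairs 3 and 4. CLK4 had a log2 FC of -0.22 ± 0.12 (adjusted p = 0.126 by limma), and CLK3 one of -0.21 ± 0.22 (limma, adjusted p = 0.257).

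In the remaining lists, the genes with the largest log2 FC other than RBM20 missed the threshold. HNRNPH3 and HNRNPR, RNA-binding proteins related to the ESRPs and to RBM47, had log2 FC of -0.20 ± 0.08 and -0.12 ± 0.04 (limma, adjusted p = 0.104 and 0.254). Among the hnRNP genes, HNRNPLL, HNRNPA0 and PCBP2 had log2 FC of -0.17 ± 0.12, -0.10 ± 0.11 and 0.09 ± 0.10. RBM24, a splicing regulator of muscle, and RBM39 had log2 FC of -0.30 ± 0.34 and -0.15 ± 0.12. Of the spliceosome genes, PRPF3 and DHX38 had log2 FC of -0.17 ± 0.13 and -0.14 ± 0.23. U2AF1, which recognizes the 3′ splice site, had a log2 FC of -0.39 ± 0.72 that came from pair 2, and is uncertain because hg38 carries a near-identical copy of this gene.

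**Figure D4:**
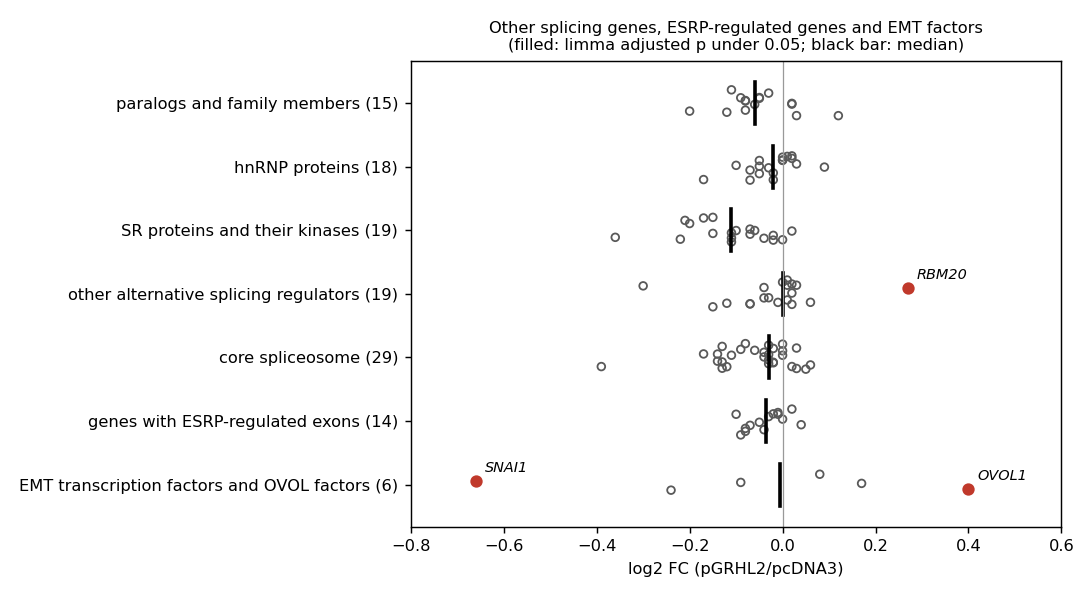
Log2 FC of pGRHL2 against pcDNA3 (x axis) for each gene of the other splicing lists, of the genes with ESRP-regulated exons and of the EMT and OVOL factors (y axis, with the number of genes in the table), with filled red points for genes called by limma and black bars for list medians. RBM20 is the only filled point among the splicing genes, and the points of the SR proteins and their kinases lie mostly below 0.

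Genes whose exons are known to be regulated by ESRPs were listed to see whether their total expression differed between the plasmids. Of 14 such genes in the table, limma called 0, and 0 passed even an unadjusted p of 0.05. Log2 FC ranged from -0.10 to 0.04, with a median of -0.034. FGFR2 and CTNND1 are given as well-known targets and were chosen after their values were seen. FGFR2, which encodes a fibroblast growth factor receptor, had a mean value of 4.28 and a log2 FC of -0.07 ± 0.27, while CTNND1, which encodes the junction protein p120-catenin, had a mean value of 4.29 and a log2 FC of 0.00 ± 0.17. Exon bases shared with other genes were not examined for the genes of this list, and such sharing can affect a counted level. GRHL1, SCRIB and LSR, an epithelial transcription factor, a polarity protein and a tricellular junction protein, had log2 FC of -0.10 ± 0.10, -0.09 ± 0.60 and -0.08 ± 0.10. Whether these genes used other exons in pGRHL2 cannot be read from gene-level values.

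Transcription factors that act upstream of the epithelial splicing program were examined last. Of the 6 in the table, limma called OVOL1 higher and SNAI1 lower, where 2.19% of all genes were called in either direction. All 6 had an unadjusted p under 0.05, where 16% of all genes passed. The list was chosen with earlier results of these data known, so nothing is read from these counts. OVOL1, a repressor of mesenchymal genes, was 4.29, 4.41, 4.37 and 4.36 in pGRHL2 libraries 1 to 4 and 4.02, 3.90, 3.94 and 3.95 in pcDNA3 libraries 1 to 4. OVOL1 rose by 0.40 ± 0.10 on the log2 scale (limma, adjusted p = 0.0031). For OVOL2, all 4 pair differences were positive, with a log2 FC of 0.17 ± 0.09 (limma, adjusted p = 0.083). SNAI1, an inducer of EMT, was 6.08, 6.09, 5.85 and 6.20 in pGRHL2 libraries 1 to 4 and 6.69, 6.68, 6.92 and 6.57 in pcDNA3 libraries 1 to 4. It fell by 0.66 ± 0.30 on the log2 scale (limma, adjusted p = 0.014), a call that was lost without replicate 1 (0.075) or without replicate 2 (0.058). ZEB1 had a log2 FC of -0.24 ± 0.18 (adjusted p = 0.149 by limma), with a difference of 0.02 in pair 3. ZEB2 and SNAI2, both weakly expressed with mean values of 1.38 and 2.80, had log2 FC of 0.08 ± 0.06 and -0.09 ± 0.07 (limma, adjusted p = 0.113 and 0.166).

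By Euclidean distance over all other genes, the 4 pair differences of ESRP1 were nearest to those of APOL1, PABPC1L, BAIAP3 and SPEG, at distances from 0.044 to 0.058. Their mean values ranged from 2.62 for SPEG to 10.22 for PABPC1L, so that a near-constant difference of this size was not limited to weakly expressed genes. The nearest genes to RBM47 were C6orf132, LRP10 and LRRN4, at distances of 0.050, 0.100 and 0.109. The nearest to ESRP2 were CHST14, SNHG4 and CHID1, at 0.032 to 0.047, which shared its larger difference in pair 2 and its small difference in pair 4. With 4 pairs per gene and 17560 other genes to compare with, such neighbors describe the shape of the differences only.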

How the data were processed

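Total RNA of 8 HepG2 samples was profiled by paired-end RNA-seq. Per the study's methods, the authors aligned the reads with Hisat2 (hg38), summed them over exons with HTSeq 0.9.1 (union mode, no strand, minimum alignment quality of 10), removed genes with fewer than 10 reads in all, and divided rlog values of DESeq2 by the mean transcript length, in a way that was not tested here. The deposited values are on a log2 scale although named FPKM (3.71% were below 0). Depth cannot be derived from them. A stray character was removed from 1 value.

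Groups and replicate numbers came from the labels. In 17561 of 17561 genes the mean of each same-numbered pair was equal (tolerance 1e-09), an adjustment that is not described in the methods. The values of a pair thus mirror each other, and the correlation check for pairing is void. The replicate number was therefore used as a block in limma 3.58.1 (R 4.3.3; lmFit, eBayes with trend, two-sided, Benjamini-Hochberg over all genes), leaving 3 residual degrees of freedom in place of 6. The study describes the 4 replicates of a plasmid as biologically independent, while the labels give only their numbers. P-values set the mean pair difference of a gene against the spread of its pair differences, moderated toward a trend over all genes. The fit was tested on simulated data.

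The regulators, the lists and the block were chosen with earlier results of these data known. Named genes were the regulators, their paralogs, every called gene and the 3 with the largest absolute log2 FC of each list, all EMT and OVOL factors, and the genes nearest to ESRP1, ESRP2 and RBM47, 1 of which is not reported here. Other settings were no block, robust moderation, library weights, 2 scalings, a level filter, a threshold of 0.01, each replicate left out (both libraries of a pair) and, added after seeing the data, removal of trends on GC content, length and level (splines with 5 degrees of freedom). Positions and exon overlaps came from GENCODE release 44, which matched 99.9% of symbols.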

Additional observations from a re-analysis of the deposited data

Results flagged for a closer look

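Among the 37 genes examined, 2 had a pair difference far from the other 3, and chance gives about 1 in 20 for each. A1CF differed by 0.165 in pair 2, compared with -0.20 to -0.15 in the other pairs. HNRNPR differed by -0.063 in pair 2, compared with about -0.14 in the other pairs. Of the 8 splicing regulators, 0 had such a pair.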

How the results depend on the processing

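With no replicate block, 1821 genes were called higher and 1427 lower by limma in place of 297 and 88, as were 2 higher and 21 lower genes of the 100 other splicing genes in place of 1 and 0. This fit counts degrees of freedom that the equalized pairs no longer hold. It called 5 of the 8 regulators (ESRP1, ESRP2, RBM47, RBFOX2 and QKI), where 1821 and 1427 of all 17561 genes were called higher and lower. These are the 5 regulators whose groups did not overlap, and nothing is read from this count. Library weights gave 503 higher and 221 lower genes, including 2 lower splicing genes. A threshold of 0.01 on the adjusted p gave 77 higher and 10 lower genes. Scaling to an equal sum leaving out GRHL2 gave 495 higher genes, and removing trends on level, length and GC content in the fit with the block, a choice made after seeing the data, gave 123. Among genes with a mean of at least 5, 63 were higher, and 0 splicing genes were, since RBM20 fell outside this filter. Leaving out 1 replicate gave between 79 and 156 higher and between 8 and 68 lower genes, with 0 to 1 splicing genes called in each direction. No cause was tested for the changes without a stated reason. The log2 FC of each regulator stayed within 1 SD of its value under every setting run, and that of ESRP1 lay between 0.22 and 0.24. For most settings this was fixed in advance. Leaving out 1 replicate cannot move the mean difference by 1 SD. The fits with no block, with robust moderation and with the level filter keep the same log2 FC by construction.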

Other observations

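Several genes of the lists varied widely between pairs. U2AF1 differed by 0.01, -1.40, 0.23 and -0.40 in pairs 1 to 4. SCRIB differed by 0.14, 0.64, -0.42 and -0.72, and RBM24 by -0.45, -0.66, -0.21 and 0.13. COL1A1, a fibroblast collagen gene chosen after its values were seen, lay between 5.88 and 5.99 in pGRHL2 and between 5.66 and 5.77 in pcDNA3. Its pair differences averaged 0.20 ± 0.10 (limma, adjusted p = 0.084).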
